A study of Homo sapiens with 6 samples.

Results

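Heparan sulfate and chondroitin sulfate are long, sulfated sugar chains that cells attach to core proteins, and the products are called proteoglycans. The genes described here are 49 of the 16953 genes in the authors' deposited table, chosen by symbol. They encode the cell-surface core proteins (syndecans and glypicans) and the enzymes that start, extend and sulfate the chains. The study sequenced RNA from H1048, an established human small cell lung cancer line of wild-type genotype per the labels. Of the 6 samples, 3 received the macrolide isovalerylspiramycin I (ISP-I) at 10 µM and 3 received its solvent DMSO, all for 48 h. All samples come from this single line grown as a bulk culture, and the series describes the samples of a group as biological replicates.

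The authors' deposited table compares library set D to F with library set A to C, 3 libraries each, and no label says which set received ISP-I. Every difference below is therefore D to F over A to C, as a log2 fold change with the Benjamini-Hochberg adjusted p of the authors' table, and no statement is made about ISP-I itself. The calls below use an adjusted p under 0.05. Levels and values per library were not used, because the library columns could not be tied to samples, and the table gives no standard errors. In bulk RNA, fewer cells of a kind and less RNA per cell cannot be told apart.

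As background, a chain begins with a linker of xylose, galactoses and glucuronic acid on a serine of the core protein. The first amino sugar added to that linker then sets the type of chain: N-acetylglucosamine for heparan sulfate and N-acetylgalactosamine for chondroitin sulfate. Sulfotransferases decorate the growing chain, and the pattern they leave is what growth factors such as FGFs, WNTs and hedgehog proteins, as well as chemokines and proteases, bind at the cell surface.

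Of the 10 core proteins at the cell surface, 7 were lower in libraries D to F and 1 was higher in the authors' deposited table. Of the 38 enzymes with an adjusted p, 15 were lower (39.5%) and 9 higher (23.7%), and the difference between the core proteins and the enzymes was not tested. Over all roles, 10 of the 48 genes with an adjusted p (20.8%) were higher and 22 (45.8%) were lower in the authors' deposited table. Over all 15976 genes with an adjusted p the shares were 29.7% higher and 27.9% lower. At least 2-fold, 7 of the 48 were higher (14.6%) and 14 were lower (29.2%), against 12.8% and 11.3% of all genes. The share of genes lower was thus above that of all genes at both thresholds, and the share higher was below it at the first and near it at 2-fold. The median log2 fold change of the 48 genes was -0.61, and that of all 15976 genes was 0.05. These counts describe the genes chosen and were not tested as a list. Counts by role, list or marker below are likewise untested and are to be read beside these shares of all genes.

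**Figure D1:**
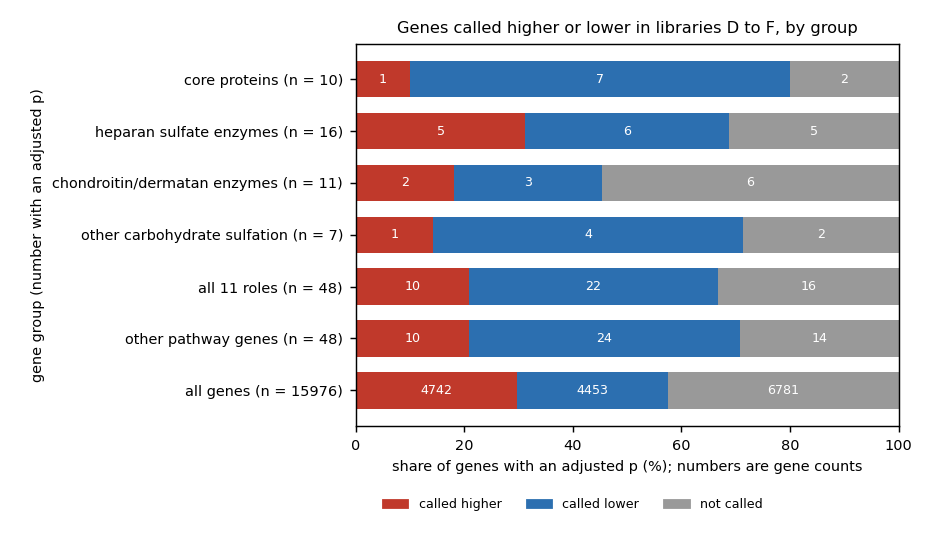
Share of genes called higher (red), lower (blue) or not called (grey) in libraries D to F, with the threshold at an adjusted p of 0.05, as a percentage of the genes with an adjusted p in each group, with gene counts printed in the bars. Of the 10 core proteins 7 were lower and 1 higher; of the 16 heparan sulfate enzymes after the linker 6 were lower and 5 higher; of all 15976 genes 4453 were lower and 4742 higher.

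Glypicans, which are held to the outer face of the membrane by a lipid anchor, were lower in 4 of 6 genes and higher in none in the authors' deposited table. GPC2, known as a neural glypican and studied as a tumour antigen, had the largest fall among the 49 genes, with a log2 fold change of -3.11 (8.62-fold lower, adjusted p = 1.07e-38; chromosome 7, 100169606 to 100177372, minus strand). GPC3, which is lost in an inherited overgrowth syndrome and made by many liver tumours, was 6.96-fold lower in the authors' deposited table (-2.80, adjusted p = 8.08e-59). Its neighbour GPC4 was 2.54-fold lower (-1.34, adjusted p = 1.93e-20). These genes lie next to each other on the minus strand of chromosome X, GPC4 at 133300103 to 133415490 and GPC3 at 133535745 to 133985895. GPC6 on chromosome 13 had a smaller fall (log2 fold change -0.52, adjusted p = 1.57e-06, from the authors' deposited table). The remaining members of the family did not pass the test: GPC5, which lies beside GPC6, stood at -0.85 (adjusted p = 0.371) and GPC1 at 0.13 (adjusted p = 0.406).

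Syndecans, which span the membrane and carry heparan sulfate and in part chondroitin sulfate, were lower in 3 of 4 genes and higher in 1. SDC3, best known from neurons, was 3.95-fold lower in the authors' deposited table (log2 fold change -1.98, adjusted p = 2.24e-59; chromosome 1, 30869467 to 30908761, minus strand). SDC2 was 3.20-fold lower (-1.68, adjusted p = 3.41e-49; chromosome 8) and SDC1, the main epithelial syndecan, 1.87-fold lower (-0.90, adjusted p = 1.22e-16). SDC4, a component of focal adhesions, was the exception and was 1.24-fold higher (0.31, adjusted p = 0.00343, from the authors' deposited table). The call of SDC4 ended under Bonferroni adjustment. SDC2 and SDC3 were the syndecans over 2-fold lower, and none was over 2-fold higher.

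**Figure D2:**
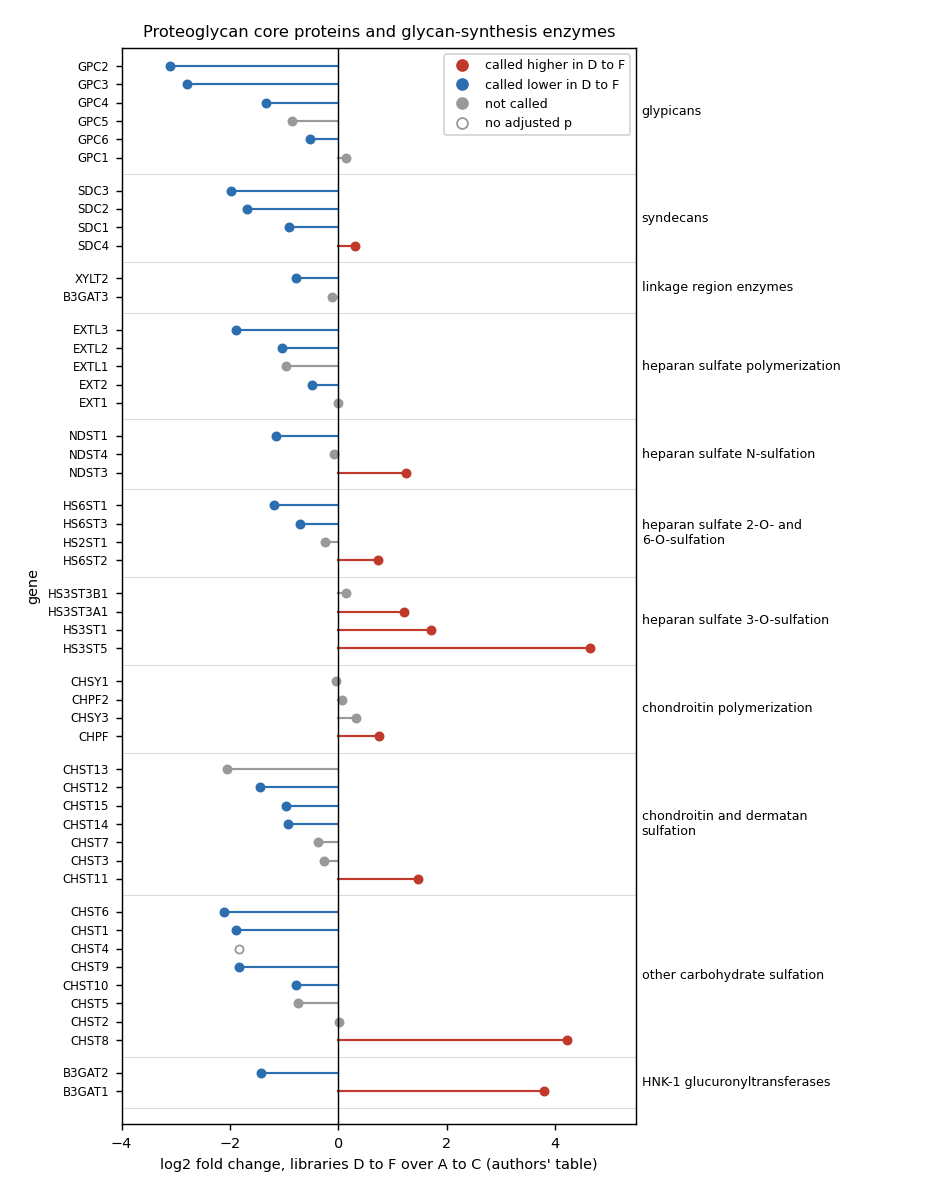
Log2 fold change of D to F over A to C in the authors' table (x axis) for each of the 49 genes (rows), grouped by role; red and blue mark genes called higher and lower, grey genes not called, and the open circle a gene with no adjusted p. Glypicans and syndecans lie mostly left of 0, down to -3.11 for GPC2, and the 3-O-sulfotransferases lie right of 0, up to 4.64 for HS3ST5.

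The promoters of GPC2 and SDC3 are shown because these are the core proteins with the largest falls whose start-site sequences were matched. Each runs 5′ to 3′ from 250 bases before to 50 bases after the RefSeq start (GRCh38.p14), at chr7:100177332-100177631 and chr1:30908709-30909008, both on the minus strand. Capitals mark matches on either strand to the GC box GGGCGG bound by SP factors or to the EGR motif GCGNGGGCG, which can overlap each other. The AP-1 motif TGANTCA and the antioxidant response element TGACNNNGC were also searched and had no match in either.
GPC2: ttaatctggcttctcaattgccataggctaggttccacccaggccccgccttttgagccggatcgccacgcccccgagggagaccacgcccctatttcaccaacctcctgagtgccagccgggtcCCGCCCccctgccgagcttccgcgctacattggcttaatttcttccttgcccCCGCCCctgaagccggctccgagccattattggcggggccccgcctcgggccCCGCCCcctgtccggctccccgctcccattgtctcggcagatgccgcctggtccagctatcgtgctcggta
SDC3: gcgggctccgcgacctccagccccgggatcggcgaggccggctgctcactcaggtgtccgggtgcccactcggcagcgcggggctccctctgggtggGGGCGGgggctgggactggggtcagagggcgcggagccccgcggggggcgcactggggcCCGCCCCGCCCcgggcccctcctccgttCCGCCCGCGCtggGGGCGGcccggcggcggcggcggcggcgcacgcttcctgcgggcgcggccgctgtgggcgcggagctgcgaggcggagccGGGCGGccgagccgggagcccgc
The GPC2 window held 3 GC boxes and no EGR motif. The SDC3 window held 6 GC boxes and 1 EGR motif, which overlapped a GC box.

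Of the 2 measured enzymes that build the linker shared by both chains, 1 was lower. XYLT2, which puts the first xylose on the core protein, was 1.73-fold lower in the authors' deposited table (log2 fold change -0.79, adjusted p = 1.02e-06). B3GAT3, which adds the closing glucuronic acid, was not called (-0.11, adjusted p = 0.381). XYLT1 was not analysed here. Among the other linker genes, the xylose kinase FAM20B, whose phosphate on xylose promotes chain growth, was lower (-1.10, adjusted p = 5.06e-34). PXYLP1, the phosphatase that removes this phosphate, was also lower (-0.44), the galactosyltransferase B3GALT6 was higher (0.53), and B4GALT7 was not called (-0.23) in the authors' deposited table.

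Of the exostosin family, which starts and extends heparan sulfate, 3 of 5 genes were lower and none higher. EXTL3, which adds the first N-acetylglucosamine and so commits the linker to heparan sulfate, had the smallest adjusted p of the 49 genes and was 3.70-fold lower in the authors' deposited table (log2 fold change -1.89, adjusted p = 7.76e-75; chromosome 8). EXTL2, a transferase that can cap a phosphorylated linker and stop the chain, was 2.06-fold lower (-1.04, adjusted p = 6.08e-13). The polymerase itself is a pair of proteins: EXT2 was 1.40-fold lower (-0.49, adjusted p = 2.85e-06), and EXT1 was listed at -0.01 (adjusted p = 0.955, from the authors' deposited table). EXTL1 was at -0.98 without passing the test (adjusted p = 0.156). Whether EXT1 and EXT2 differ from each other in their change was not tested.

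N-deacetylase/N-sulfotransferases (NDSTs) make the first modification, on which the later sulfation steps depend. NDST1, the broadly expressed form, was 2.22-fold lower in set D to F (log2 fold change -1.15, adjusted p = 6.14e-18, from the authors' deposited table). NDST3 was 2.37-fold higher with an adjusted p just under the threshold (1.25, adjusted p = 0.0482). That call ended at an adjusted p under 0.01, under Bonferroni adjustment and with the adjustment taken over every gene with a p. NDST4 was not called (-0.09, adjusted p = 0.970), and NDST2 was not analysed here.

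The O-sulfotransferases of heparan sulfate were divided, 2 lower and 1 higher of the 4 that act at the 2-O and 6-O positions. Among those acting at the 6-O position, HS6ST1 was 2.28-fold lower in the authors' deposited table (log2 fold change -1.19, adjusted p = 2.76e-25) and HS6ST3 1.63-fold lower (-0.71, adjusted p = 0.00102), the second a call that ended under Bonferroni adjustment. HS6ST2 was 1.67-fold higher (0.74, adjusted p = 3.68e-08). HS2ST1, the only 2-O-sulfotransferase, lay just outside the threshold (-0.24, adjusted p = 0.0540; unadjusted p = 0.0314, from the authors' deposited table).

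The 3-O-sulfotransferases, which add the rarest modification, were higher in 3 of the 4 genes measured and lower in none. HS3ST5 had the largest rise among the 49 genes, 24.9-fold in the authors' deposited table (log2 fold change 4.64, adjusted p = 1.28e-08; chromosome 6, 114055586 to 114343045, minus strand). HS3ST1, which makes the antithrombin-binding site of heparin, was 3.26-fold higher (1.70, adjusted p = 0.00152; chromosome 4). HS3ST3A1, whose product binds a herpes simplex virus glycoprotein, was 2.32-fold higher (1.22, adjusted p = 0.000261, from the authors' deposited table). Its close relative HS3ST3B1 was not called (0.13, adjusted p = 0.446). These relatives share sequence: 17.3% of the 100-base windows of HS3ST3A1 transcripts and 8.16% of those of HS3ST3B1 occur in the other gene, so reads from that stretch cannot be assigned by sequence and their separate values are uncertain. The adjusted p of HS3ST1 and HS3ST3A1 was far larger than that of falls of similar size, such as SDC2, and neither call passed Bonferroni adjustment. HS3ST2, HS3ST4 and HS3ST6 were not analysed here.

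**Figure D3:**
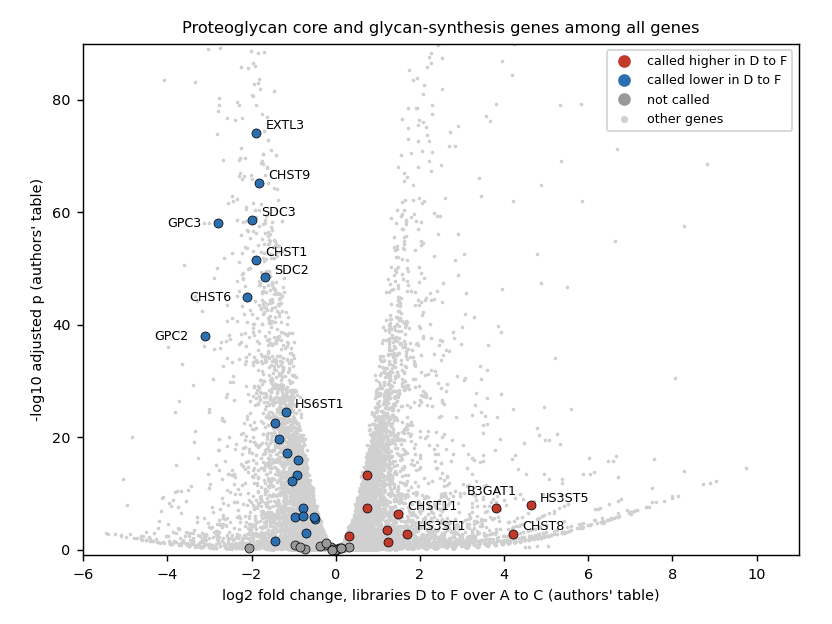
Log2 fold change of D to F over A to C (x axis) against -log10 of the adjusted p (y axis), both from the authors' table, for the 48 genes with an adjusted p (red higher, blue lower, dark grey not called) over all other genes (light grey); the y axis ends at 90, which leaves out 134 genes. The falls of EXTL3, CHST9, SDC3 and GPC3 stand high on the y axis, while the rises of HS3ST5, B3GAT1 and CHST8 are larger in fold and stand low.

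Chondroitin chain polymerases were higher in 1 of 4 genes (25%, near the 29.7% of all genes) and lower in none. CHPF, a subunit that forms active polymerase with its partners, was 1.67-fold higher in the authors' deposited table (log2 fold change 0.74, adjusted p = 5.22e-14). The other three of this group, CHSY1 (-0.05), CHSY3 (0.32) and CHPF2 (0.07), were not called. The exons of CHPF overlap those of TMEM198 on the opposite strand, and TMEM198 was itself higher (1.70, adjusted p = 3.55e-22). Exons of CHPF2 overlap those of SMARCD3 on the opposite strand, and SMARCD3 was lower (-0.64, adjusted p = 1.56e-06). The sources used here do not say whether reads were counted by strand, so the values of CHPF and CHPF2 are uncertain. Upstream of the polymerases, the enzymes that add the first N-acetylgalactosamine were both higher, CSGALNACT2 at 1.35 (adjusted p = 5.93e-29) and CSGALNACT1 at 1.17 (adjusted p = 0.00884, from the authors' deposited table). EXTL3, which competes for the same linker to start heparan sulfate, was lower, as given above. Whether these changes are linked was not tested. These are measurements of RNA, and no chain was measured.

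Sulfotransferases of chondroitin and dermatan sulfate were lower in 3 of 7 genes and higher in 1. Among the 4-O-sulfotransferases, CHST11 was 2.78-fold higher in the authors' deposited table (log2 fold change 1.48, adjusted p = 4.57e-07; chromosome 12). CHST12, which adds sulfate at the same position, was 2.74-fold lower (-1.45, adjusted p = 2.37e-23; chromosome 7). The third of them, CHST13, stood at -2.05 without passing the test (adjusted p = 0.506). CHST14, which sulfates dermatan, was 1.90-fold lower (-0.93, adjusted p = 4.24e-14), and CHST15, which adds a second sulfate to an already 4-O-sulfated unit, 1.95-fold lower (-0.97, adjusted p = 1.64e-06, from the authors' deposited table). The 6-O-sulfotransferases CHST3 (-0.26, adjusted p = 0.120) and CHST7 (-0.37, adjusted p = 0.200) were not called. Of the genes outside the set that act on the same chains, the uronyl sulfotransferase UST was lower (-0.73) and the dermatan epimerase DSE was not called (-0.24). DSEL was not analysed here.

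The symbol CHST also covers sulfotransferases of other glycans, and 4 of the 7 with an adjusted p were lower and 1 higher. CHST6, the enzyme of corneal keratan sulfate, was 4.33-fold lower in the authors' deposited table (log2 fold change -2.11, adjusted p = 1.20e-45; chromosome 16, 75472052 to 75495445, minus strand). CHST1, which sulfates the galactose of keratan sulfate, was 3.71-fold lower (-1.89, adjusted p = 2.50e-52; chromosome 11). The hormone glycan sulfotransferases CHST9 and CHST8 act on the same N-acetylgalactosamine and went opposite ways. CHST9 was 3.55-fold lower (-1.83, adjusted p = 5.54e-66; chromosome 18), and CHST8 was 18.5-fold higher with a much larger adjusted p (4.21, adjusted p = 0.00140 in the authors' deposited table; chromosome 19). The call of CHST8 ended under Bonferroni adjustment. CHST2 (0.01, adjusted p = 0.949) and CHST5 (-0.74, adjusted p = 0.811) were not called. Of the 100-base windows of CHST5, 56.2% occur in another annotated gene, nearly all in AC009163.2, which overlaps it on the same strand, so the value of CHST5 is uncertain. Of the windows of its neighbour CHST6, 0.101% are shared. CHST4 had no adjusted p, and its listed fold change recurs to 3 decimals in 23 genes of the authors' deposited table, so it carries no information on CHST4.

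HNK-1 is a sulfated glucuronic acid epitope of neural adhesion molecules, made by a glucuronyltransferase and the sulfotransferase CHST10. B3GAT1, the main glucuronyltransferase, was 14.0-fold higher in the authors' deposited table (log2 fold change 3.80, adjusted p = 3.46e-08; chromosome 11, 134378504 to 134411918, minus strand). B3GAT2 was 2.71-fold lower (-1.44, adjusted p = 0.0265), a call that ended at an adjusted p under 0.01 and under Bonferroni adjustment. Exons of B3GAT2 overlap those of SMAP1 on the opposite strand, which was not called (0.24). CHST10 was 1.72-fold lower (-0.79, adjusted p = 4.33e-08, from the authors' deposited table).

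The promoters of HS3ST5 and B3GAT1, 2 of the 3 largest rises, are set beside that of CHST9, the enzyme fall of smallest adjusted p with a match. They lie at chr6:114342974-114343273, chr11:134412193-134412492 and chr18:27185259-27185558, all on the minus strand, and are written and marked as before.
HS3ST5: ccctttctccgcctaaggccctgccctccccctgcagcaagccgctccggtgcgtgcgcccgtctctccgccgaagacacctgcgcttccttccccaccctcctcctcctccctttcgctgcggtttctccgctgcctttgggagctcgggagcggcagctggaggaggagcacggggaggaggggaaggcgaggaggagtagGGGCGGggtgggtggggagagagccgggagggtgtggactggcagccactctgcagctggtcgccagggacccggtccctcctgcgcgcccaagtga
B3GAT1: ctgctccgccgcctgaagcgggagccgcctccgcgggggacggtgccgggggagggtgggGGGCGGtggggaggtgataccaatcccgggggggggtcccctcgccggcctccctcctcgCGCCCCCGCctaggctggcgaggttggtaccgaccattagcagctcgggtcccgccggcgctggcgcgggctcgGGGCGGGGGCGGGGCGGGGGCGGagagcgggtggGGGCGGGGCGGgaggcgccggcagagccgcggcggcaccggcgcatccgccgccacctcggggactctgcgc
CHST9: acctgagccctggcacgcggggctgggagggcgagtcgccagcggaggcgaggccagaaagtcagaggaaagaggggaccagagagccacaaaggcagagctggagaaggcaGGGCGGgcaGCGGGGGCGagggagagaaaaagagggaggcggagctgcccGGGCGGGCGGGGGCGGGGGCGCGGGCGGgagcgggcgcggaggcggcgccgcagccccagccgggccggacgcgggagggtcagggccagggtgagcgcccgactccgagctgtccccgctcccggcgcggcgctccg
The HS3ST5 window held 1 GC box and no other motif searched. B3GAT1, which was higher, held 7 GC boxes and 3 EGR motifs, and 4 of the GC boxes overlapped an EGR motif. CHST9, which was lower, held 5 GC boxes and 4 EGR motifs, and 3 of the GC boxes overlapped an EGR motif. Some EGR motifs of CHST9 also overlapped each other, so these matches are not separate sites. Over the set, 43 of the 49 genes matched a RefSeq promoter. The EGR motif was present in 17 of these 43 genes (39.5%), against 17.6% of the 12884 genes of the authors' deposited table with a matched promoter and 9.41% of all 34943 promoters. A gene was counted once if any of its matched promoters held the motif, while the share of all promoters counts each promoter. By call, the EGR motif was present in 4 of 10 genes called higher, 6 of 18 called lower and 7 of 15 not called, so it was found in each class. Among all genes with a matched promoter it was in 17.3% of those called higher and 22.6% of those called lower. The GC box was in 83.7% of the 43 genes, against 70.2% of the genes of the table and 44.9% of all promoters. AP-1 motifs were in 5 of the 43 genes (11.6%, against 7.80% of the genes of the table and 7.72% of all promoters). Antioxidant response elements were in 4 (9.30%, against 18.6% and 13.3%). A match is a run of letters and not a measured binding site.

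Of the 10 genes that supply sugar and sulfate to the Golgi, 3 were higher (30%) and 5 lower (50%) in the authors' deposited table. Over all genes the shares were 29.7% and 27.9%, so the share higher was near that of all genes. UGDH, which makes the UDP-glucuronic acid that both chains need, was 2.70-fold higher (log2 fold change 1.43, adjusted p = 7.44e-53). SLC35B2, the main Golgi carrier of the sulfate donor PAPS, was 2.55-fold lower (-1.35, adjusted p = 4.26e-35), and PAPSS1, which makes PAPS, was lower as well (-0.79, adjusted p = 1.16e-15, from the authors' deposited table). The second PAPS synthase PAPSS2 (0.82) and the second carrier SLC35B3 (0.45) were higher. BPNT1 (-0.91) and IMPAD1 (-0.49), phosphatases that clear the by-product of sulfation, and the xylose supplier UXS1 (-0.31) were lower. UGP2 and SLC35D1 were not called.

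The epimerase, the 6-O-endosulfatases and the heparanase of heparan sulfate were lower in 3 of 4 genes and higher in none. GLCE, the epimerase that gives the chain its flexible iduronic acid, was at -1.05 (adjusted p = 5.26e-16), the extracellular 6-O-endosulfatase SULF2 at -0.90 (adjusted p = 9.50e-11), and heparanase HPSE at -0.54 (adjusted p = 3.71e-07) in the authors' deposited table. SULF1 was not called (-0.13). Lysosomal enzymes that break down one or both kinds of chain were lower in 4 of the 9 genes reported (44.4%) and higher in 1 (11.1%). The shares of all genes were 27.9% lower and 29.7% higher. ARSB (-1.31, adjusted p = 1.63e-22) and GALNS (-0.99, adjusted p = 3.89e-07) were the largest falls among these 9, and NAGLU was higher (0.71, adjusted p = 8.39e-09, from the authors' deposited table).

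Other proteoglycan core proteins, outside the syndecans and glypicans, were lower in 9 of 17 genes with an adjusted p and higher in 3. COL18A1, a basement membrane collagen with heparan sulfate, was 4.90-fold lower in the authors' deposited table (log2 fold change -2.29, adjusted p = 7.48e-80), and AGRN, the heparan sulfate proteoglycan agrin, 2.65-fold lower (-1.40, adjusted p = 1.53e-38). The chondroitin sulfate proteoglycans CSPG5 (-1.38, adjusted p = 5.84e-20) and CSPG4 (-2.07, adjusted p = 0.000122) were also lower, as were the testicans SPOCK1 (-1.87) and SPOCK3 (-2.90). The rises were of the brain proteoglycans BCAN (4.96, adjusted p = 3.92e-14) and NCAN (4.29, adjusted p = 5.52e-05) and of the hyaluronan receptor CD44 (1.73, adjusted p = 2.43e-29, from the authors' deposited table). DCN was at -3.01 without passing the test (adjusted p = 0.165), and SRGN had no adjusted p. BGN was not analysed here. Over all 6 lists of other pathway genes, 10 of 48 were higher (20.8%) and 24 lower (50%), beside 20.8% and 45.8% in the set. Over all genes with an adjusted p the shares were 29.7% and 27.9%. Set and lists were chosen with earlier results of these data known, and their likeness was not tested.

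Fibroblasts also make many matrix proteoglycans. Their markers are given here although the labels name a single cancer line and no fibroblasts. Of 5 fibroblast markers, the 4 with an adjusted p (COL1A1, LUM, PDGFRB and POSTN) were all lower, at log2 fold changes from -0.57 to -4.22 in the authors' deposited table. The adjusted p was 0.0395 for LUM, which had the largest fall, and 0.0247 for PDGFRB. It was 5.82e-09 for POSTN and 0.00015 for COL1A1. The fifth, COL1A2, had no adjusted p. Whether these marker values relate to the falls of core proteins was not tested. Of 6 markers of the tuft cell-like subtype to which H1048 belongs, 3 were lower and 1 higher. Of 4 leukocyte markers 1 was higher, and none of the 3 endothelial markers measured was called (1, CLDN5, had an unadjusted p under 0.05 in the authors' deposited table). Levels were not used, so the labelled cell type could not be checked from the abundance of its markers.

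**Figure D4:**
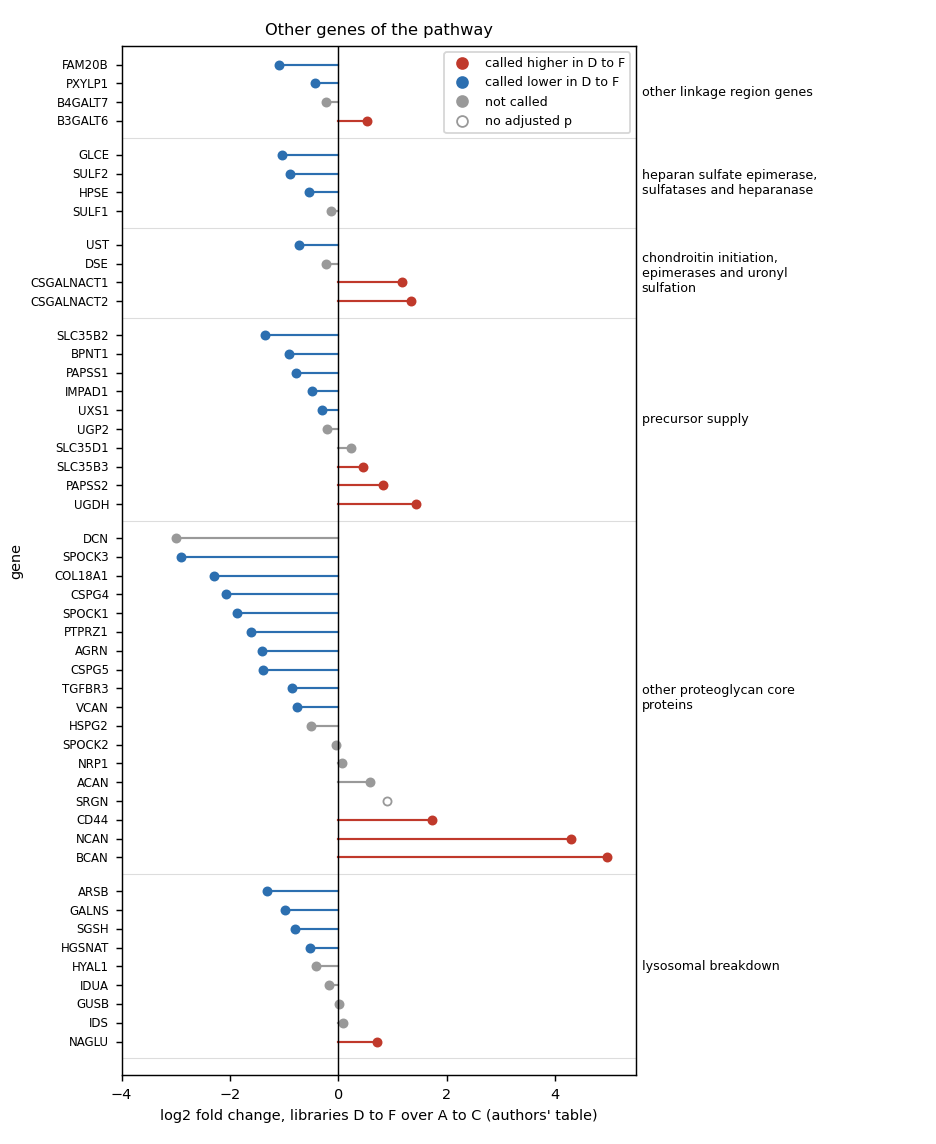
Log2 fold change of D to F over A to C in the authors' table (x axis) for the other genes of the pathway (rows), grouped by role; red and blue mark genes called higher and lower, grey genes not called, and the open circle a gene with no adjusted p. The other core proteins range from -3.01 for DCN, which was not called, to 4.96 for BCAN. The heparan sulfate epimerase, sulfatases and heparanase all lie left of 0.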

How the data were processed

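RNA of 6 H1048 samples (3 ISP-I, 3 DMSO) was sequenced as paired ends. Per the submitters' processing notes, Trimmomatic, STAR, HTSeq and DESeq2 were used with the build hg38; tool versions, the annotation and the strand setting are not stated there. The authors deposited, per the file headers, log2 fold changes with raw and adjusted p-values for each gene, for libraries D to F over A to C; the direction is read from the order in the table's name. Whether fold changes were shrunken is not given. The library letters could not be tied to samples by any label, so 36 columns of values per library were not used, the count-based fit was not run, and depth, per-sample values and errors are not given.

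An adjusted p of exactly 1 (977 genes) was read as none; the other 15976 equal Benjamini-Hochberg values over those genes. Genes were called at an adjusted p under 0.05. The smaller deposited table (4021 genes) repeats values of the larger one. Genes were chosen by symbol, and genes called at this threshold were named by role. An item of the lists is not reported here. The members and lists were chosen with earlier results of these data known. Positions, exon overlaps and shared 100-base windows come from GENCODE 29 (GRCh38), and promoters from RefSeq. The adjustment as recomputed here was tested on simulated data, which does not test the authors' own p-values. Scripts ran in Python 3.11.15 with numpy 2.4.6, pandas 2.3.3, scipy 1.17.1 and matplotlib 3.10.9.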

Additional observations from a re-analysis of the deposited data

How the results depend on the processing

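Of the 49 genes, 10 were called higher and 22 lower in libraries D to F. A minimum of 2-fold left 7 higher and 14 lower, and Bonferroni adjustment left 5 higher and 20 lower; these settings are stricter by construction. Under Bonferroni adjustment the calls of B3GAT2, CHST8, HS3ST1, HS3ST3A1, HS6ST3, NDST3 and SDC4 ended. An adjusted p under 0.01 ended those of B3GAT2 and NDST3, adjustment over every gene with a p ended that of NDST3, and an unadjusted p under 0.05 added HS2ST1. Centring fold changes on the median of all genes (0.06) cannot change a call that rests on the adjusted p, and no called fold change was small enough for its sign to turn. At the minimum of 2-fold it takes CHST15 past the limit, to a log2 fold change of -1.03. Among the other pathway genes there were 10 rises and 24 falls; a minimum of 2-fold left 6 rises and 11 falls.

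No paired analysis was possible because no label ties the library columns to samples and their replicate numbers. For the same reason a count-based fit, a filter on low counts and leaving out each replicate were not run. How far low counts lie behind large fold changes of large adjusted p, such as that of CHST8, was therefore not tested.

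In GENCODE 29, exons of 15 of the 49 genes overlap those of another gene, and 10 of the 15 were called. Besides CHPF and B3GAT2, the called ones are EXTL3, CHST9, CHST1, CHST6, NDST1, EXTL2, GPC6 and XYLT2. All are overlapped on the opposite strand, so the strand caveat given for CHPF holds for them too. Separately, 5 genes have over 5% of their windows in another gene. Of these 5, HS3ST3A1 and HS6ST1 were called; 11.5% of the windows of HS6ST1 occur in the pseudogene HS6ST1P1.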
